A study of Mus musculus with 22 samples.

Results

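Divergent promoters of pairs of protein-coding genes were examined for RNA polymerase II (PolII) peaks across the passage from mitosis into G1 phase, in cells with and without CTCF. A pair was taken where 2 coding genes on opposite strands of an autosome had their annotated gene 5′ ends, used here as transcription start sites (TSSs), head to head within 1000 bp (GENCODE vM1, mm9). The region scored was the span between the 2 TSSs with 500 bp added on each side. The rule found 789 pairs among 20641 coding promoter regions. These pairs held 1562 genes, 16 genes stood in more than 1 pair, and the pairs covered 773 distinct loci. The median distance between the TSSs was 141 bp (quartiles 73 and 271 bp, range 1 to 987 bp), and 622 pairs (78.8%) lay within 300 bp. For comparison, 457 regions had a coding gene head to head with a non-coding gene, and 19395 were lone coding promoters, scored over 1142 bp.

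The cells were G1E-ER4, an erythroblast line of mouse, and PolII was mapped by ChIP-seq. Both alleles of CTCF in every group carried an AID-mCherry fusion, which auxin sends to degradation through the TIR protein the cells also express. Cells were arrested in prometaphase with nocodazole and released for 1 h (early-G1), 2 h (mid-G1) or 4 h (late-G1). Treated groups received auxin in the later part of the arrest and kept it through release, and control groups had the same handling without it. Sorting took prometaphase cells by a mitotic antigen and 4N DNA content and G1 cells by 2N content, with mCherry-positive cells kept for control and mCherry-negative cells for auxin. Of the 18 peak lists, mid-G1 had 3 control and 3 auxin libraries, and each other stage had 2 of each. Groups follow the sample titles. The study's list of raw read files has the same late-G1 split as the titles, while its list of processed files has another split between control and auxin, so late-G1 auxin values rest on the titles. The labels do not say whether replicates were separate cultures, so p-values measure the spread between these libraries. The stages are those of nocodazole-arrested cells of 1 line, and prometaphase cells hold 4N DNA where G1 cells hold 2N.

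Divergent promoters, also called bidirectional promoters, place PolII initiation complexes back to back over a shared nucleosome-depleted stretch of DNA. They are common in mammalian genomes, usually sit in CpG islands and often serve housekeeping genes, among them many for DNA repair, histones and mitochondrial proteins. PolII typically pauses a short way downstream of a TSS, so a ChIP peak at such a promoter can be highest over either gene. Most transcription stops in mitosis and starts again as the nucleus reforms, and some promoters keep part of their machinery on mitotic chromosomes.

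The DNA between the 2 TSSs is given for the pairs on which the results turn, read from NCBIM37 (mm9), plus strand, from the TSS of the minus-strand gene (named first) to the TSS of the plus-strand gene. Capitals mark exact matches, on either strand, to short words that transcription factors are known to bind. They are GGGCGG, bound by SP1 and its relatives; CCAAT, bound by the trimer NFY; CCGGAAG, bound by the ETS family of factors; GCATGCG, bound by the activator NRF1; and AAGATGG, bound by the zinc finger protein YY1. Also searched were TGACGT, the cAMP response element or CRE; CACGTG, the E-box of basic helix-loop-helix factors; TATAAA, the TATA box of core promoters; and AGGGGGC, a piece of the longer CTCF motif. The SP1 and CTCF words can overlap. Prpf38a/Orc1 (chr4:108251941-108252028) and Acot8/Zswim3 (chr2:164630382-164630598) had the largest fall and rise in rank between early-G1 and late-G1. Srsf7/Ttc39d (chr17:80606629-80606800) had the best mean rank in prometaphase and Hist2h2ac/Hist2h2be (chr3:96024803-96025044) is a histone pair. Exd1/1500003O03Rik (chr2:119373363-119373433) and Zwilch/Rpl4 (chr9:64020911-64021194) were the pairs called for auxin.
Prpf38a/Orc1: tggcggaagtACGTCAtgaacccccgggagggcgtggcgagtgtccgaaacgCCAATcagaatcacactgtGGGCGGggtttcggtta
Acot8/Zswim3: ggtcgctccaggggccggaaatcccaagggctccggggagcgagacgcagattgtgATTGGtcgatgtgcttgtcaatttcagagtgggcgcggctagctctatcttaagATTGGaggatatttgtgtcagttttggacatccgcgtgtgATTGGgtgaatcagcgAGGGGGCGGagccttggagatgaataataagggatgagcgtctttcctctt
Srsf7/Ttc39d: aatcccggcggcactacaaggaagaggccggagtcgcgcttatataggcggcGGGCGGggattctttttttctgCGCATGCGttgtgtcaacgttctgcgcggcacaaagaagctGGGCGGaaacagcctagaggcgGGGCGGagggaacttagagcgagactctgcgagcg
Hist2h2ac/Hist2h2be: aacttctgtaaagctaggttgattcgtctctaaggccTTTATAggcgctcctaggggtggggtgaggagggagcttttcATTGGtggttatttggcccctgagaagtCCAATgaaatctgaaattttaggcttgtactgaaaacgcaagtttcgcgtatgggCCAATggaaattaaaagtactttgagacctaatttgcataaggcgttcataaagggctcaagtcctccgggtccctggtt
Exd1/1500003O03Rik: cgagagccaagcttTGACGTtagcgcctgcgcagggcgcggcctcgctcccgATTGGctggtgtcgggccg
Zwilch/Rpl4: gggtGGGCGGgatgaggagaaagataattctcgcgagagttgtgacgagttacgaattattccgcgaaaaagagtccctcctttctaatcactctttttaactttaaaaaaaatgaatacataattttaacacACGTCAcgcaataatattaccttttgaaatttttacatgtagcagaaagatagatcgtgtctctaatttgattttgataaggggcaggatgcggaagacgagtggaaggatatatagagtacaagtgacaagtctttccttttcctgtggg
The sequences differ in make-up as the wider set does. Zwilch/Rpl4 was the poorest in G and C (38.0%) and Exd1/1500003O03Rik the richest (70.4%) of those shown, and the TATA word stood in Hist2h2ac/Hist2h2be. Acot8/Zswim3 held the NFY word at 3 places and the overlapping CTCF and SP1 words once.

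To ask what these promoters share besides their arrangement, the same words were counted in windows of 300 bp, centred between the TSSs for divergent pairs and reaching from 250 bp before to 50 bp after the TSS for lone promoters. Median G and C content was 62.3% at divergent pairs and 54.3% at lone promoters, and the ratio of observed to expected CpG was 0.851 against 0.487. The ETS word stood in 28.6% of divergent windows, 17.3% of windows of a coding with a non-coding gene, 9.34% of lone windows and 10.3% of all coding promoter windows. The CRE word, bound by CREB and ATF proteins, was in 17.0% of divergent, 7.74% of lone and 8.25% of all windows. The SP1 word was in 66.8% against 41.2% (42.8% of all), the NRF1 word in 8.11% against 3.98% (4.21% of all) and the YY1 word in 10.3% against 6.49% (6.65% of all). The NFY word differed less, 42.6% against 37.1% (37.4% of all), as did the E-box, 10.4% against 7.45% (7.61% of all), and the CTCF word, 15.0% against 11.7% (12.0% of all). The TATA word went the other way, with 4.82% of divergent and 14.4% of lone windows (13.9% of all). Windows of a coding with a non-coding gene had a median of 63.7% G and C and a CpG ratio of 0.816. They held the SP1 word in 68.9%, NFY in 43.8%, CTCF in 19.9%, CRE in 14.9% and the E-box in 9.85%. NRF1 stood in 7.22%, YY1 in 7.44% and TATA in 5.03%, so most of these traits were not particular to coding pairs. The ETS word differed more, but its share moved with the distance between the TSSs, as given below. That distance was not matched between these classes. Of the 19395 lone promoters 11540 had no peak in any library, and of the 789 divergent pairs 101. A match is a description of the letters and not of binding.

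**Figure D1:**
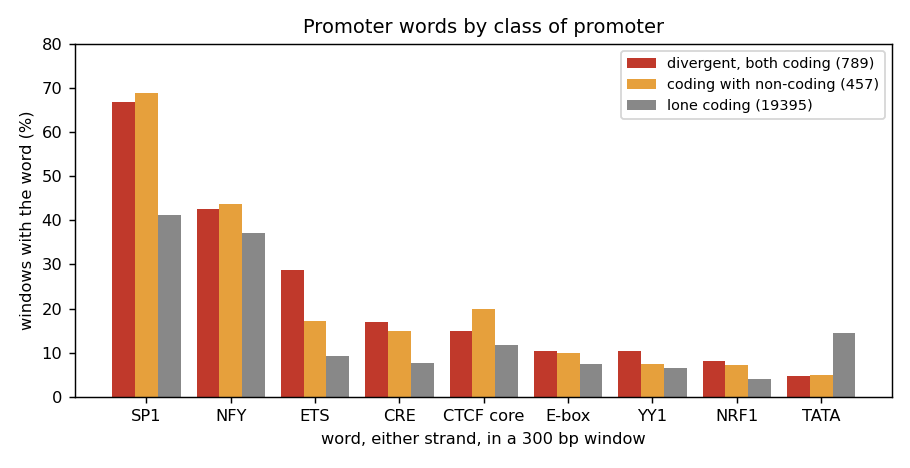
Share of windows of 300 bp that hold each word on either strand (vertical axis, percent), with 1 bar for each class of promoter: 789 divergent pairs, 457 coding genes opposite a non-coding gene, and 19395 lone coding promoters. The ETS bar of divergent pairs (28.6%) is above that of lone promoters (9.34%), and the TATA bar is below it (4.82% and 14.4%).

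Within the pairs, the words moved with distance. Where the TSSs were at most 100 bp apart, 40.8% of 292 windows held the ETS word and 28.1% the NFY word. At 101 to 300 bp the order was turned, with 27.9% ETS and 55.2% NFY over 330 windows. Beyond 300 bp, 8.98% of 167 windows held the ETS word and 43.1% the NFY word. The window has a fixed length of 300 bp and is centred between the TSSs. At up to 100 bp it holds both TSSs and the start of each gene, and beyond about 300 bp it leaves both TSSs out. A change of words with distance and the placement of the window therefore cannot be told apart.

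The libraries differed in depth. From the fold enrichment and p-value of each peak, the whole number of reads over its summit that fitted both best was sought. It gave back the listed −log10 p-value within 0.01 for 99.8% to 100% of peaks per library. The background recovered with it put the depth at 4.54 to 13.3 reads per kb of genome. Lists held 2414 to 3918 peaks in prometaphase and 50594 to 117125 after mitosis. Mid-G1 control replicate 1 was the shallowest library (4.54 reads per kb, 50594 peaks). Of 10 erythroid and progenitor markers, 7 had a peak at the TSS in all 14 post-mitotic libraries and Gata2, Zfpm1 and Lmo2 in 13, 12 and 11, while none of the 17 markers of T cells, B cells, hepatocytes, neurons or muscle had a peak in any library.

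PolII peaks were found at most divergent promoters after mitosis and at few in prometaphase. In prometaphase, the control libraries had a peak at 21.9% and 19.4% of the 789 pairs, and the auxin libraries at 17.5% and 13.8%. After mitosis the share was 80.9% to 85.8% in the 14 libraries, with a mean of 84.6% ± 1.18 (SD, n = 14). Lone coding promoters had a peak in 4.21% to 6.66% of cases in prometaphase and in 33.3% to 38.4% after mitosis. Coding genes opposite a non-coding gene lay between, with 10.1% to 17.1% in prometaphase and 61.3% to 67.0% after mitosis. The order of the 3 classes was the same in each of the 18 libraries. A divergent region holds 2 coding TSSs and a lone region 1, and region lengths differ, so the classes do not have equal chances of a peak. The part of this in the shares was not tested. In prometaphase both auxin libraries were below both control libraries in all 3 classes, and these lists were of unequal length (3918 and 3221 peaks in control, 3539 and 2414 in auxin). After mitosis the shares averaged 84.3% ± 1.59 in control and 84.9% ± 0.565 in auxin libraries (SD, n = 7 each), and the groups overlapped.

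**Figure D2:**
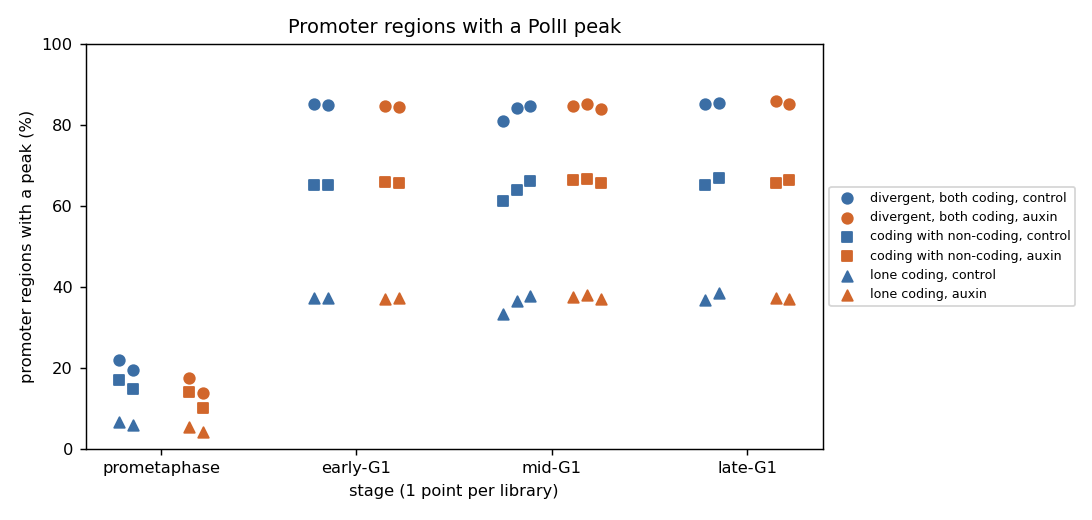
Share of promoter regions with a PolII peak (vertical axis, percent) by stage, 1 point per library, blue for control and orange for auxin; circles are divergent pairs, squares coding genes opposite a non-coding gene, and triangles lone coding promoters. After mitosis the circles lie between 80.9% and 85.8% and the triangles between 33.3% and 38.4%.

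The lists overlapped strongly in which divergent promoters they held. A peak was present in all 14 post-mitotic libraries at 629 pairs (79.7%, over 616 distinct loci), in some libraries at 59 and in none at 101. The corresponding share in all 14 was 60.0% for coding genes opposite a non-coding gene and 32.4% for lone promoters. No pair had a peak in all 7 control libraries and in no auxin library after mitosis, nor the reverse, where 0.0% and 0.00484% of all 20641 coding promoter regions did. A prometaphase peak was found at 240 pairs in at least 1 library and at 75 (9.51%) in all 4, and no pair had a peak in prometaphase alone. Among regions with a peak in all 14 post-mitotic libraries, the share with a peak in all 4 prometaphase libraries was 11.9% at divergent, 11.7% at coding with non-coding and 7.89% at lone promoters. Regions were then put in 4 bins of equal size by mean post-mitotic rank. In the bin with the best ranks the share was 32.9% of 173 divergent pairs and 28.8% of 1527 lone promoters. In the following bins it was 4.76%, 3.75% and 2.80% at divergent and 2.73%, 0.570% and 0.245% at lone promoters. As a ratio, the classes were closest in the first bin.

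Pairs without any peak differed in sequence from those with a peak in all 14. The ETS word stood in 9.90% of the 101 and in 31.6% of the 629, the CRE word in 5.94% and 18.8%, and the median ratio of observed to expected CpG was 0.712 and 0.869. The 75 pairs with a peak in all 4 prometaphase libraries held the TATA word in 20.0% of windows, the NFY word in 57.3% and the ETS word in 18.7%, and 11 of the 75 were histone pairs.

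Detection also moved with the distance between the TSSs. A peak was present in all 14 post-mitotic libraries at 87.3% of pairs with TSSs at most 100 bp apart, 78.2% at 101 to 300 bp and 69.5% beyond 300 bp. Among the pairs with a peak in all 14 (255, 258 and 116 in these classes), the strongest peak covered both TSSs at 94.0% ± 3.94, 79.6% ± 8.25 and 48.0% ± 9.12 (SD, n = 14). More than 1 peak overlapped the region at 16.2% ± 3.08, 23.0% ± 6.29 and 40.8% ± 9.42 of the same pairs.

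The summit, the point of highest signal in a peak, rarely lay between the TSSs. In the post-mitotic libraries it did so at 9.17% ± 1.08 of the pairs detected in each library (SD, n = 14). Among pairs with a peak in all 14, the share was 6.22% ± 1.39 at up to 100 bp, 6.42% ± 1.24 at 101 to 300 bp and 21.9% ± 2.86 beyond. In prometaphase the share was 14.5% to 19.6% of the 109 to 173 pairs detected. Where the summit lay within the region in all 14 libraries (540 of 629 pairs), its median position was 73 bp downstream of the nearer gene's TSS (quartiles 37.5 and 127.5 bp). Another 34 pairs had a median summit more than 500 bp downstream, so that the strongest peak reached beyond the promoter.

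One gene of a pair often held the summit throughout. At 325 of 629 pairs (51.7%) the summit was on the same side of the middle in all 14 post-mitotic libraries, 168 on the minus-strand side and 157 on the plus-strand side. At 90 pairs (14.3%) the libraries were split, with 5 to 9 of the 14 on the plus-strand side. Gene bodies, taken from 500 bp after the TSS to the gene end and at least 1000 bp long, were measured as the share of their bases under peaks. Of the 590 pairs with both bodies, 171 had both genes above 10% on average, 239 had only 1 and 180 had neither. The more covered gene of a pair had a median of 21.5% and the less covered gene 3.39%. Body coverage of partners was weakly related (Spearman's rho 0.284 over 590 pairs, which share libraries and depth). Of 304 pairs with a stable side and both bodies, the summit was on the side of the more covered body at 220 (72.4%). Ribosomal protein genes stood in several one-sided pairs. Rpl9, which encodes a protein of the large ribosomal subunit, was covered over 98.9% of its body and its partner Lias, for lipoic acid synthesis, over 4.24%. Rpl7a was covered over 100% and its partner Med22, a Mediator subunit, over 12.3%, and Rpl35a over 95.3% against 3.73% for Iqcg. Coverage is a share of length, and the partners were longer genes. Rpl9 spans 3080 bp and Lias 19197 bp, Rpl7a 2555 and Med22 5416 bp, and Rpl35a 3737 and Iqcg 40834 bp. The part of gene length in these contrasts was not tested. These examples were chosen after their values were seen.

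Strong prometaphase peaks stood at a few pairs that were also among the strongest after mitosis. Ranks order the peaks of a list by fold enrichment with 1 for the strongest, and since prometaphase lists are shorter, their ranks cannot be set against post-mitotic ranks as levels. Srsf7/Ttc39d ranked 15 and 13 in control and 25 and 26 in auxin prometaphase libraries, and between 5 and 26 in the 14 post-mitotic libraries. Srsf7 encodes a splicing factor of the SR family, and the summit lay 86 to 155 bp toward it from the middle in all 18 libraries. Its body was covered over 63.9% and that of Ttc39d over 0.117%. Ddx5/Ccdc45, with the RNA helicase Ddx5, ranked 96 and 50 in control and 48 and 78 in auxin prometaphase libraries, and 68 to 150 after mitosis. Its summit stood 739 to 847 bp toward Ddx5 in every library, outside the promoter region. Rps28/Ndufa7, a ribosomal protein gene beside a gene of respiratory complex I, ranked 102, 69, 92 and 54 in prometaphase and 176 to 921 after mitosis. Ppwd1/Cenpk, which holds a kinetochore protein gene, ranked 60, 82, 92 and 85 in prometaphase and 381 to 1300 after mitosis.

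Replication-dependent histone genes made up 4 of the 8 best prometaphase pairs. Of 14 histone pairs 11 had a peak in all 4 prometaphase libraries and the same 11 in all 14 post-mitotic libraries, and their median mean rank after mitosis was 63.8, against 3979 for all divergent pairs with a peak in all 14. Hist1h2ae/Hist1h2bg and Hist1h2bf/Hist1h2ad ranked 52 and 33 in control and 33 and 72 in auxin, the same values because 1 broad peak covered both pairs. In histone clusters the strongest peak often had its summit outside the pair, within the region in 0 to 3 of 14 post-mitotic libraries for the pairs of chromosome 13 named here, so such ranks are not the pair's own. The cytosolic ribosome list had 9 pairs, 7 of them with a peak in all 4 prometaphase libraries, and its median mean rank was 409.9.

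Few divergent promoters differed between control and auxin. To compare strength, −log2 of the rank of the strongest overlapping peak was fitted with limma over the 7179 coding promoter regions with a peak in all 14 post-mitotic libraries, 629 of them divergent. A difference of 1.00 means a rank number divided by 2, and ranks cannot show a change shared by all promoters. For the auxin effect averaged over the 3 stages, 1 pair was higher and 1 lower (2 of 629, where 0.752% of all regions were called). Within early-G1 1 pair was higher (0.0139% of all), within mid-G1 1 was higher (0.237%) and within late-G1 1 was higher and 1 lower (0.167%). Without late-G1 control replicate 2 the averaged effect was called at 5 pairs and the late-G1 effect at 15, and without any 1 of the 4 early-G1 libraries no pair was called in early-G1. No divergent pair was called by the F test of whether the auxin effect differed between stages (limma, 0.0139% of all regions called, 26 pairs at an unadjusted p under 0.05).

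Exd1/1500003O03Rik was the pair that rose with auxin, in each stage. Exd1 belongs to a family of exonuclease-like proteins, and the region is chr2:119372863-119373933. In control libraries it ranked 4288 and 4010 in early-G1, 8962, 8048 and 7912 in mid-G1, and 5224 and 9343 in late-G1. In auxin libraries it ranked 427 and 772, then 922, 559 and 790, then 499 and 545. Every auxin library was therefore nearer the top than every control library, and no prometaphase library had a peak there. The difference was 3.36 ± 0.23 (SE, limma adjusted p = 4.27e-07, higher with auxin in 7 of 7 libraries). The reads over the summit went from 17 to 73 in control to 94 to 129 in auxin libraries. In auxin libraries the summit lay 490 to 528 bp toward Exd1, at the edge of the region. In control libraries it stood there in early-G1 and in mid-G1 replicate 1, and within 169 bp of the middle in the other 4, and the auxin difference in position had a limma adjusted p of 0.231. The span between the TSSs, printed above, held the CRE and NFY words and no match to the CTCF word.

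Zwilch/Rpl4 was the pair that fell with auxin, and its effect was not called as different between stages by the F test. Zwilch is a kinetochore protein and Rpl4 a protein of the large ribosomal subunit (chr9:64020411-64021694). Control libraries ranked 102 and 113 in early-G1, 221, 130 and 83 in mid-G1, and 215 and 40 in late-G1. Auxin libraries ranked 117 and 110, then 181, 286 and 404, then 1559 and 2177. The groups overlapped in early-G1 and mid-G1 and were apart in late-G1. The mean difference was −1.81 ± 0.34 (SE, limma adjusted p = 0.0144). The summit of the strongest peak lay 5747 to 6057 bp toward and beyond Rpl4 in 9 of the 14 libraries and 152 to 202 bp from the middle in the other 5, among them both late-G1 auxin libraries, so the libraries did not all score the same point. Ranked by reads over the summit the difference was −0.95 (limma adjusted p = 0.147).

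**Figure D3:**
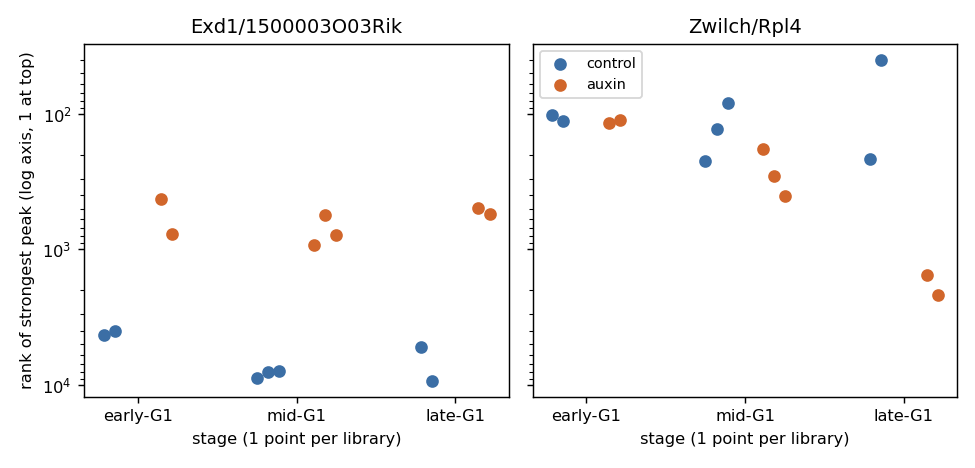
Rank of the strongest peak (vertical log axis, rank 1 at the top) at the 2 pairs called for auxin, by stage, 1 point per library, blue for control and orange for auxin. At Exd1/1500003O03Rik all 7 auxin libraries (427 to 922) lie above all 7 control libraries (4010 to 9343), and at Zwilch/Rpl4 only the late-G1 auxin libraries (1559 and 2177) lie apart.

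The stages differed at many more divergent promoters than auxin did. From early-G1 to mid-G1, 75 pairs were lower (11.9% of 629, where 9.03% of all regions were) and 25 higher (3.97%, where 4.58% of all were), with a median change of −0.23 at pairs and −0.10 over all regions. From mid-G1 to late-G1, 20 were lower (3.18%, 3.71% of all) and 32 higher (5.09%, 5.0% of all). From early-G1 to late-G1, 55 were lower (8.74%, 6.94% of all) and 24 higher (3.82%, 5.47% of all). These shares stood near those of all coding promoter regions. Of the pairs lower in mid-G1, 17 were higher again in late-G1 (2.70% of 629, where 2.28% of all regions were), and 3 were higher in mid-G1 and lower again in late-G1 (0.477%, 0.446% of all). Without any 1 of the 4 early-G1 libraries, 55 to 64 pairs in place of 100 were called from early-G1 to mid-G1 and 44 to 52 in place of 79 from early-G1 to late-G1. No pair was called for a difference between control and auxin in the change from early-G1 to late-G1 (limma, 0 of 629, 31 at an unadjusted p under 0.05).

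The fold enrichment on which these ranks rest divides the reads over a summit by a background set by the input of the same stage, and that background moved with the calls. Each stage had 1 input library, shared by its control and auxin libraries. The SE and p-values of stage contrasts by fold therefore hold no spread between inputs, and stage and input cannot be told apart in them. At the 24 pairs called higher in late-G1, the median background was 1.50 times the library's genome-wide level in early-G1, 1.05 times in mid-G1 and 1.00 times in late-G1. At the 55 called lower it was 1.00, 1.04 and 1.44 times. Over all 629 pairs it was 1.02, 1.04 and 1.01 times. The calls used the fold, so these medians are a description. Ranking the peaks by the reads over the summit instead, a choice made after the data were seen, called 29 pairs lower from early-G1 to late-G1 (3.64% of all regions) and 10 higher (2.6% of all). Of the 55 pairs lower by fold, 22 were also lower by reads and 52 had the same direction, and of the 24 higher by fold, 7 were also higher by reads and 19 had the same direction. By reads, 39 pairs were lower (4.44% of all) and 6 higher (1.62% of all) from early-G1 to mid-G1, and 1 pair was called from mid-G1 to late-G1 (0.223% of all). For auxin, 2 pairs were higher by reads (1.0% of all regions called): Exd1/1500003O03Rik by 3.13 and Nlgn2/1810027O10Rik by 0.93 (limma adjusted p = 0.0464).

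**Figure D4:**
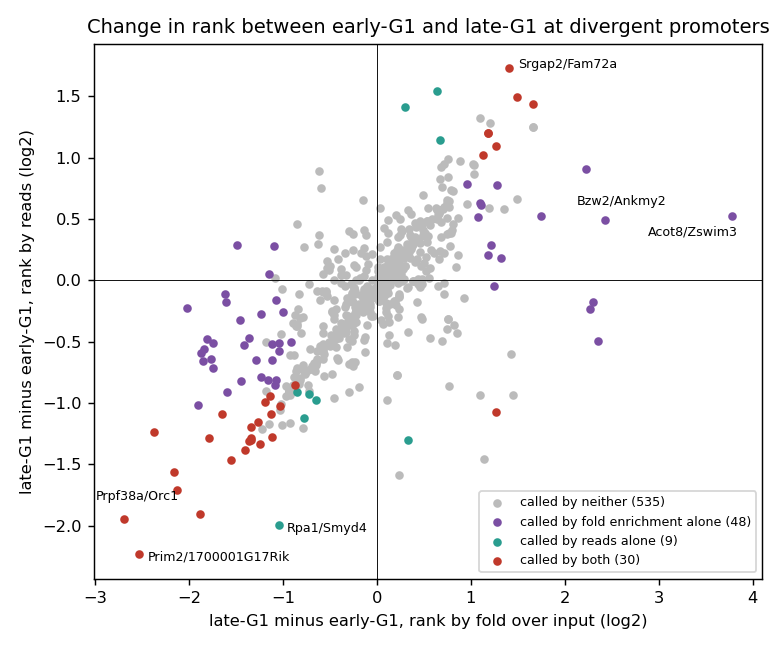
Change in rank from early-G1 to late-G1 at 622 divergent promoters with distinct values (log2, positive where late-G1 is nearer the top), ranked by fold enrichment over the input (horizontal axis) and by reads over the summit (vertical axis), 1 point per pair and colour for the limma call. Both rankings called 30 pairs, fold alone 48 and reads alone 9; Prpf38a/Orc1 and Prim2/1700001G17Rik lie low on both axes, while Acot8/Zswim3 lies far right and near 0.52 on the vertical axis.

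The 5 largest falls between early-G1 and late-G1 were called by both rankings, at Prpf38a/Orc1, Prim2/1700001G17Rik, Gm17658/Hist1h4d, Pxmp2/Pole and Dtl/Ints7. Prpf38a/Orc1 holds the genes of a splicing factor and of the largest subunit of the origin recognition complex (chr4:108251441-108252528). It ranked 510 and 1452 in control and 792 and 772 in auxin early-G1 libraries, 1206 to 3428 in mid-G1, and 3552 and 5172 in control and 5374 and 7904 in auxin late-G1 libraries. Each late-G1 library stood lower than each early-G1 and mid-G1 library. The change from early-G1 to late-G1 was −2.69 ± 0.36 (SE, limma adjusted p = 0.000226), and −1.94 by reads (limma adjusted p = 0.0033).

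Prim2/1700001G17Rik, with the large subunit of DNA primase (chr1:33726131-33727188), ranked 417 and 515 in control and 525 and 424 in auxin early-G1 libraries. It ranked 2707 to 6642 in mid-G1 and 2358 to 3365 in late-G1, so that no later library reached the early-G1 values, while control and auxin libraries overlapped. The change was −2.54 ± 0.33 (SE, limma adjusted p = 0.000204), and −2.24 by reads. Pxmp2/Pole, with the catalytic subunit of DNA polymerase epsilon (chr5:110714705-110715825), ranked 598, 656, 677 and 1117 in early-G1, 2395 to 4657 in mid-G1 and 2721 to 3601 in late-G1. The change was −2.16 ± 0.29 (SE, limma adjusted p = 0.000205), and −1.57 by reads. Its summit lay 160 to 196 bp toward Pole in all 14 libraries. Dtl/Ints7, with the substrate receptor that degrades licensing factors and an Integrator subunit, ranked 381 to 816 in early-G1 and 1129 to 3784 in late-G1, a change of −2.12 ± 0.38 (limma adjusted p = 0.00157), and −1.71 by reads. It was also strong in prometaphase, at ranks 183 and 200 in control and 350 and 169 in auxin. Gm17658/Hist1h4d fell by 2.37 by fold and by 1.24 by reads, with a summit outside the pair in 11 of 14 libraries. Its call was lost in 8 of 23 alternatives (limma adjusted p up to 0.147), among them leaving out either early-G1 auxin library, early-G1 control replicate 2, either late-G1 auxin library or late-G1 control replicate 3.

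The largest rises were seen by fold and not by reads. Acot8/Zswim3, with a peroxisomal thioesterase gene (chr2:164629882-164631098), ranked 3414, 4308, 3541 and 3932 in early-G1, 198 to 429 in mid-G1, and 205, 573, 239 and 204 in late-G1. The early-G1 libraries stood apart from the other 10, a change to late-G1 of 3.78 ± 0.34 (SE, limma adjusted p = 5.42e-06). The background at the summit was 3.05 to 3.50 times the genome-wide level in early-G1 and 1.13 to 1.41 times later. The mean reads were 158 in early-G1 and 181 in late-G1, and by reads the change was 0.52. The other leading rises had the same form. The background in early-G1 and late-G1 was 2.16 and 1.00 times at Bzw2/Ankmy2, 2.30 and 1.00 at Atp5c1/Kin, with a subunit gene of mitochondrial ATP synthase, 2.23 and 1.00 at Syngr4/Tmem143, and 1.57 and 1.00 at Hist1h2ag/Hist1h2bj. Their changes by fold were 2.43, 2.30, 2.27 and 2.36, and by reads 0.49, −0.18, −0.24 and −0.50, none called. The fold call of Hist1h2ag/Hist1h2bj was also lost in 7 other alternatives of 23.

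DNA repair and replication genes were then counted as a list. Of its 34 pairs 32 were tested, and Rad17/Taf9 is annotated as 2 pairs with the same values, which leaves 31 distinct pairs. From early-G1 to late-G1, 8 of the 31 were lower by fold (25.8%, where 6.94% of all regions were) and 2 higher (5.47% of all), with a median change of −0.27 beside −0.06 over all divergent pairs. By reads 7 were lower (3.64% of all) and none higher (2.6% of all), with a median of −0.36. From early-G1 to mid-G1, 8 were lower by fold (9.03% of all) and 8 by reads (4.44% of all), and none higher by either. The list was chosen with earlier results of these data known, and it does not hold every gene of this kind, so the counts depend on its make-up. Outside it, Rad54l/Pomgnt1 (−1.85), Pms1/Ormdl1 (−1.81) and Rad9b/Vps29 (−1.75) were lower by fold and not called by reads. Trmt6/Mcm8 was called by neither. These pairs were named after their values were seen. Lower in late-G1 by both were Prpf38a/Orc1, Prim2, Pxmp2/Pole, Vps35/Orc6 (−1.89 and −1.91), Atm/Npat (−1.12 and −1.09) and Palb2/Dctn5 (−0.87 and −0.86). Orc6 is a further subunit of the origin recognition complex, Atm the kinase that answers double-strand breaks, Npat a coactivator of histone transcription and Palb2 a partner of the BRCA proteins. Rpa1/Smyd4, with the large subunit of the single-strand DNA binding protein RPA, had 115 mean reads in early-G1 and 74.8 in late-G1, was lower by reads (limma adjusted p = 0.000932) and not called by fold (−1.04, limma adjusted p = 0.106). Toe1/Mutyh (1.75) and Dak/Ddb1 (1.11), with a DNA glycosylase and a damage-binding protein, were higher by fold and not called by reads. The pairs of Chek2, Fancd2, Lig4, Xpc and Brca1 had changes between −0.38 and 0.38 by fold, none called.

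Outside all the lists, pairs lower in late-G1 by both rankings were, beside Dtl/Ints7, Tti1/Rprd1b (−1.79 and −1.29), Recql/Golt1b (−1.56 and −1.46), Wrap53/Trp53 (−1.40 and −1.39), Aasdhppt/Kbtbd3 (−1.36 and −1.31), Cops5/Cspp1 (−1.34 and −1.20) and Ccdc72/Ccdc51 (−1.34 and −1.28). The remaining such pairs were Dync2h1/Dcun1d5 (−1.26 and −1.16), Rad51ap1/D6Wsu163e (−1.24 and −1.33), Thoc4/Anapc11 (−1.19 and −0.99), Brix1/Rad1 (−1.12 and −1.28) and Pcmt1/Lats1 (−1.03 and −1.03). Their genes have varied roles. Recql, a DNA helicase, Rad51ap1 and Rad1 act in DNA repair or its checkpoints, and the DNA repair and replication list did not hold them. Also here were Trp53, the p53 tumour suppressor, Cops5, a subunit of the COP9 signalosome, and Dync2h1, a dynein of cilia. Further genes were Anapc11, a subunit of the anaphase promoting complex, and Lats1, a kinase of the Hippo pathway. Pairs higher by both were Srgap2/Fam72a (1.40 and 1.73), Polr3g/Mblac2 (1.66 and 1.44), Ccdc146/Fam185a (1.49 and 1.49), Pus7l/Irak4 (1.27 and 1.10), Arsk/Ttc37 (1.13 and 1.03) and Spry4, an inhibitor of receptor tyrosine kinase signalling, which stands in 2 pairs (1.18 and 1.20). Mmab/Mvk, with genes of cobalamin metabolism and of the mevalonate pathway, was higher by reads (1.54 ± 0.27, limma adjusted p = 0.00446) and not called by fold (0.64). These pairs were named after their values were seen.

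The other lists were counted in the same way from early-G1 to late-G1, where of all regions 6.94% were lower and 5.47% higher by fold and 3.64% lower and 2.6% higher by reads. These lists are short, and no test of a list was made. Of 17 tested pairs with a gene of the mitochondrial ribosome or its translation, 5 were lower by fold and 1, Helq/Mrps18c, by reads. Of 9 cytosolic ribosome pairs 3 were lower by fold (Med22/Rpl7a −1.62, Rps27/Rab13 −1.61 and Zwilch/Rpl4 −1.91) and none by reads, where they had −0.11, −0.18 and −1.02. At Zwilch/Rpl4 the auxin libraries went from ranks of 117 and 110 to 1559 and 2177, while the control libraries overlapped between the stages (102 and 113, then 215 and 40). The early-G1 background at these 3 was 1.00, 1.33 and 1.00 times and the late-G1 background 1.59, 1.84 and 1.44 times. Of 23 respiratory chain pairs 3 were lower and 2 higher by fold, and by reads 1 was lower, Sdha/Ccdc127, with a subunit of succinate dehydrogenase (−1.34 by fold and −1.30 by reads). Of 14 distinct tested pairs with PolII subunits, general factors or Mediator 3 were lower by fold (Med22/Rpl7a, Serac1/Gtf2h5 and Rad17/Taf9) and none by reads. The 11 tested histone pairs had 3 lower and 1 higher by fold and 2 lower by reads. None of 6 proteasome pairs and none of 10 distinct chaperone pairs was called by fold from early-G1 to late-G1, and none by reads.

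Summit position was compared with the same model, in bp from the middle and positive toward the plus-strand gene. For auxin averaged over stages, 8 pairs at 7 distinct loci were called (1.3% of all regions), and from early-G1 to late-G1 9 pairs at 8 loci (0.822% of all). The F test between stages called 7 pairs at 6 loci (0.766% of all). At the 5 loci described here the difference came from 1 group of 2 libraries. At Bloc1s3/Trappc6a the early-G1 control summits were at −212 and −240 bp and the other 12 at 275 to 332 bp. At Smpd2/Ppil6 the early-G1 control summits were at −1598 and −1510 bp and the others between −204 and 45 bp, where each post-mitotic library ranked 7824 or lower in its list.

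The remaining switches were in auxin libraries. At Ppme1/C2cd3 the early-G1 auxin summits were at 304 and 286 bp and the other 12 between −231 and −129 bp. At Apbb3/Slc35a4 they were at 196 and 182 bp and the other 12 between −200 and −125 bp. At 2410002O22Rik/Trim23, annotated as 2 pairs with the same symbols, the late-G1 auxin summits were at −260 and −228 bp and the other 12 at 229 to 333 bp. In each case the summit passed from one gene's side to the other's or along one gene, and both replicates of the group did so together. Hist2h2ac/Hist2h2be, whose sequence is given above, was called for auxin (735 ± 104 bp, SE, limma adjusted p = 0.00817). Its control summits lay between −1147 and −99 bp and its auxin summits between −108 and −87 bp, so the groups overlapped. Nubp2/Spsb3 had summits between −195 and 240 bp in early-G1 and between 2572 and 2913 bp in late-G1 (2744 ± 320 bp, SE, limma adjusted p = 0.00338), out of the promoter and over Spsb3 and its neighbour Eme2. Fbxo18/Ankrd16 had summits between −265 and −234 bp in early-G1 and between 172 and 907 bp in late-G1 (957 ± 172 bp, SE, limma adjusted p = 0.048). That call was lost in 11 of 19 alternatives (limma adjusted p up to 0.114), among them leaving out any 1 early-G1 library or either late-G1 control library.

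**Figure D5:**
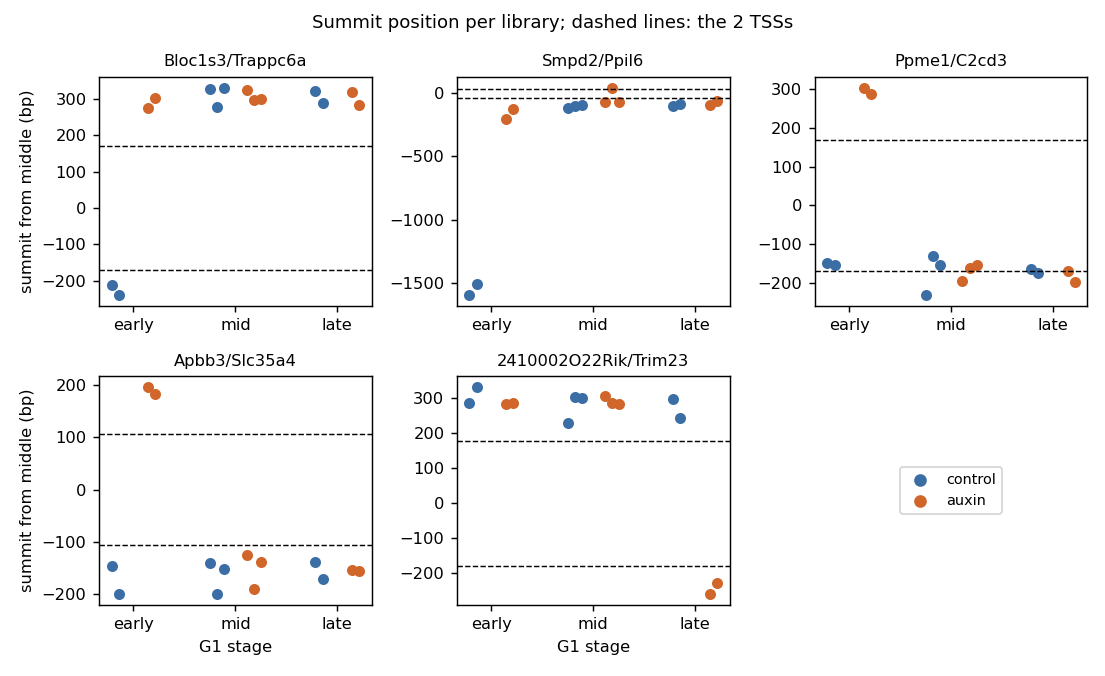
Position of the strongest summit in bp from the middle between the TSSs (vertical axis, positive toward the plus-strand gene; dashed lines mark the TSSs) at 5 divergent promoters by G1 stage, 1 point per library, blue for control and orange for auxin. In each panel 1 group of 2 libraries stands apart, early-G1 control at Bloc1s3/Trappc6a and Smpd2/Ppil6, early-G1 auxin at Ppme1/C2cd3 and Apbb3/Slc35a4, and late-G1 auxin at 2410002O22Rik/Trim23.

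Of 10 divergent pairs that textbooks and reviews cite, 4 were found by the rule. The other 6 (Hspd1/Hspe1, Surf1/Surf2, Ppat/Paics, Col4a1/Col4a2, Tap1/Psmb9 and Ruvbl2/Gys1) have annotated 5′ ends that cross, by 21 to 3252 bp, so that the genes overlap. Atm/Npat ranked 1037 and 1335 in control and 1056 and 1369 in auxin early-G1 libraries, 1872 to 3798 in mid-G1 and 2138 to 3152 in late-G1, with the summit 168 to 219 bp toward Npat throughout. Brca1/Nbr1 had a peak in every library, at ranks 319 and 682 in control and 531 and 442 in auxin prometaphase, 2538 to 3553 in early-G1 and 1639 to 17002 later. In prometaphase its summit lay 129 to 204 bp toward Nbr1, and in 11 post-mitotic libraries 828 to 880 bp, beyond the promoter region. Mcm4/Prkdc, with a replicative helicase subunit and a repair kinase, had a peak in 6 of 14 post-mitotic libraries, all 4 of early-G1 among them, and never with its summit in the region. Mrps12/Sars2 had no peak in any library.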

How the data were processed

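PolII ChIP-seq peak lists of 18 libraries were used; 4 input libraries entered only as controls of the peak calling. The authors aligned reads to mm9 with Bowtie2 2.2.9, dropped reads with a mapping quality under 10, PCR duplicates and reads on chrM, on contigs or in blacklisted intervals (SAMtools 0.1.19, bedtools 2.27.1), and called peaks per library with MACS2 2.1.0 against the input of the same stage at q 0.01. The deposited lists give, for each peak, a fold enrichment over the local background (a ratio), the −log10 p-value, the −log10 q-value, an integer score that was not used, and the summit. No read counts per region were analysed here, and no count model was fitted.

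Coding promoter regions were built from GENCODE vM1. In each list peaks were ranked by fold enrichment, and a region took the rank and summit of its strongest overlapping peak. −log2 rank and summit position were fitted with limma 3.58.1 in R 4.3.3 (6 group means, all 14 post-mitotic libraries, robust for summits) over 7179 regions, and called at a Benjamini-Hochberg adjusted p under 0.05. Input background is the local background divided by the commonest one of the list. On simulated ranks of the auxin contrast over 7179 regions, 37% of 100 changes of 1 and 96% of 100 changes of 2 (log2) were recovered. Shares were given with their SD over libraries and no test, and a region without a peak may hold signal under the threshold. Python 3.11.15 with pandas 2.3.3, numpy 2.4.6, scipy 1.17.1 and matplotlib 3.10.9 was used for the rest.

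The pairs and gene lists were chosen with earlier results of these data known. Named were the pairs with the largest called changes (up to 8 per direction for auxin, 5 for stage and for summits), the 8 best in prometaphase, the 6 best after mitosis and textbook pairs; other names are marked as chosen after their values were seen, and 2 pairs under these rules are not reported here. Alternatives tried were the −log10 p-value as ranking, other region widths and distances, a summit inside the region, equal list lengths, a stricter q, merged peaks, normal scores, ranks among promoters, a replicate block, leaving out each library and, added later, ranking by reads over the summit.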

Additional observations from a re-analysis of the deposited data

Results flagged for a closer look

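The auxin effect on summit position differed between stages at 5 loci given here by limma's F test of the difference. The adjusted p was 4.95e-06 at Smpd2/Ppil6, 7.08e-05 at Bloc1s3/Trappc6a, 0.000222 at 2410002O22Rik/Trim23, 0.000723 at Ppme1/C2cd3 and 0.00214 at Apbb3/Slc35a4. The auxin difference in early-G1, mid-G1 and late-G1 was 1388, 72.3 and 14.5 bp at Smpd2/Ppil6 and 515, −5.67 and −3 bp at Bloc1s3/Trappc6a. It was −24.5, 15 and −515 bp at 2410002O22Rik/Trim23, 447, 1.67 and −14.5 bp at Ppme1/C2cd3, and 362, 12.7 and 0.5 bp at Apbb3/Slc35a4. Each rests on 1 group of 2 libraries.

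Of 24 checks for a value far from the rest, each of 1 measure in 1 group of libraries, 3 held one. Chance gives about 1 in 20 for a single check. The groups overlapped, so the checks were not separate, and 1 library was flagged by the same measure in overlapping groups. The share of divergent promoters with a peak was lowest in mid-G1 control replicate 1 (80.9%), both among the 6 mid-G1 libraries and among the 7 post-mitotic control libraries. That library had the lowest depth, 4.54 reads per kb, whose part in this was not tested. The share of summits between the TSSs was highest in early-G1 auxin replicate 2 (9.45%), where the other early-G1 libraries had 9.08% to 9.13%.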

How the results depend on the processing

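Of 344 values recomputed for the counts and shares, 273 stayed within 1.5 times a count or 1 SD of a share and 71 moved further. Direction was not scored for these values. For auxin averaged over stages the count of 2 called pairs was 1 with the −log10 p-value, merged peaks, normal scores, ranks among promoters or the replicate block, and 0 where the summit had to lie in the region, where Exd1/1500003O03Rik could not be tested. In the other 22 alternatives that pair kept its call, and Zwilch/Rpl4 lost its call in 10. The early-G1 count of 1 became 0 with normal scores, the replicate block or the summit in the region, the mid-G1 count of 1 became 0 with the summit in the region, and the late-G1 count of 2 became 1 with the −log10 p-value, merged peaks or reads and 0 with normal scores or the block. The mid-G1 against early-G1 count of 100 was 57 with the −log10 p-value (48 lower and 9 higher), 42 with normal scores (36 lower and 6 higher) and 45 by reads (39 lower and 6 higher), where the main split was 75 lower and 25 higher. Late-G1 against mid-G1 (20 lower and 32 higher) gave 2 (1 each), 8 (3 lower and 5 higher) and 1 (higher), and late-G1 against early-G1 (79) gave 47, 26 and 39. By reads the change reversed at Hist1h2ag/Hist1h2bj (−0.50), Atp5c1/Kin (−0.18) and Syngr4/Tmem143 (−0.24). Why the −log10 p-value and normal scores gave fewer calls was not tested.

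Leaving out 1 library gave 1 to 5 pairs for auxin averaged over stages, 0 to 2 in early-G1, 1 to 2 in mid-G1 and 1 to 15 in late-G1, and 0 to 6 for the F test. The counts of 5, 15 and 6 came without late-G1 control replicate 2, and the mid-G1 count of 2 without mid-G1 control replicate 3. The averaged count was 1 without either early-G1 auxin library or early-G1 control replicate 1. The early-G1 count was 0 without any 1 of the early-G1 libraries and 2 without either late-G1 control library. The late-G1 count was 1 without either late-G1 auxin library or late-G1 control replicate 3. The range was 55 to 120 pairs for mid-G1 against early-G1, 27 to 57 for late-G1 against mid-G1 and 44 to 94 for late-G1 against early-G1. The low values came without any 1 of the early-G1 libraries (55 to 64, and 44 to 52, the latter also without late-G1 auxin replicate 1), and without late-G1 auxin replicates 1 (27) or 2 (33). The summit counts of 8 and 9 were 10 to 17 and 9 to 20, highest without late-G1 control replicate 2 and at 14 to 16 without replicate 1 of early-G1 control or auxin, either late-G1 auxin library or, for stage, late-G1 control replicate 3. The post-mitotic share with a peak (84.6%) was 80.1% with the summit in the region, 83.1% with 250 bp on each side and 86.1% within 300 bp, and its excess over lone promoters 46.3, 47.1 and 48.4 percentage points (main 47.6). The share of summits between the TSSs was 6.33% within 300 bp.

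Replicate numbers were not used as pairs in the main fits, and whether they pair the libraries was not tested. Control and auxin libraries were correlated in their deviations from the group means. Same-numbered libraries had 0.078 in early-G1, 0.064, 0.13 and 0.27 in mid-G1 and 0.045 in late-G1. Different-numbered libraries had −0.078 in early-G1, −0.20 to 0.10 in mid-G1 and −0.045 to 0.045 in late-G1. With 2 libraries in a group the deviations mirror each other, so the early-G1 and late-G1 values differ in sign alone by construction. In mid-G1 the deviations of a group cancel out, so its values are not independent either. With the replicate block the summit counts were 20 and 30, and the averaged auxin rank count was 1. Prometaphase libraries had 4.93 to 5.95 reads per kb and 2414 to 3918 peaks, and mid-G1 control replicate 1 had 4.54 reads per kb and 50594 peaks. The part of depth in the list lengths was not tested. A promoter without a peak may still hold signal under the q threshold.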

Other observations

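Among the 101 divergent promoters without a peak in any library, 7 lay in a peak-free stretch of under 2 kb with PolII peaks close by, although 85 lay in stretches of over 10 kb. These 7 were Mrpl49/Fau (1334 bp), Cdca2/Kctd9 (1383 bp), Aurka/Cstf1 (1457 bp), Mrps12/Sars2 (1533 bp), Sharpin/Maf1 (1620 bp), Usp5/Cdca3 (1745 bp) and Ap3m1/Adk (1758 bp). At Mrpl49/Fau, which holds genes of a mitochondrial and a cytosolic ribosomal protein, 12 post-mitotic libraries had a peak within 2 kb on the Mrpl49 side and 14 on the Fau side, and at Sharpin/Maf1 14 and 12. The authors removed reads in blacklisted intervals, and the part of this step in these gaps was not tested.

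Cep57/Fam76b was called in opposite directions, higher in late-G1 than in early-G1 by fold (1.27) and lower by reads (−1.08). It was the only pair of the 30 called by both rankings to do so.

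The 55 pairs lower in late-G1 than in early-G1 by fold held the E2F word TTCCCGC on either strand in 18.2% of windows, where 10.2% of the 629 tested pairs and 5.37% of all coding promoter windows did, and a second E2F word (TTTGGCG) in 7.27%, where 2.86% of tested pairs and 1.83% of all windows did. Both words were chosen after values were seen. The 24 pairs higher in late-G1 by fold held the NFY word in 70.8% of windows. The share was 49.1% at the 55 lower pairs, 43.4% at the 629 tested pairs and 37.4% in all coding promoter windows. They held the ETS word in 8.33%, where 38.2% of the lower pairs, 31.6% of tested pairs and 10.3% of all windows did. Of the 24, 7 were also higher by reads, and their median input background was 1.50 times in early-G1 and 1.00 times in late-G1. Both words also varied with the distance between the TSSs, which was not matched between these sets.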
